A study of Glycine max with 9 samples.

Results

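The soybean genes described here, Glyma09g00400 and Glyma02g15340, were higher in chilled leaves after 1 h than before chilling and lower again after 24 h, within each of 3 replicate numbers. They were 2 of the 49777 genes in the deposited table. They were chosen from the values themselves, by 4 conditions on the difference in log2(normalized counts + 1) between libraries of the same replicate number. The value at 1 h had to exceed that at 0 h by at least 0.4 in 3 of 3 replicate numbers, and the value at 24 h had to be lower than that at 1 h by at least 0.4 in 3 of 3. The 24 h value had to stand less than 0.58 above the 0 h value in at least 1 replicate number, and the 1 h mean had to reach 100 normalized counts. All 3 comparisons between times therefore went into the choice, and the sizes of the members' differences are given as a description, without a test.

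The leaves were the unifoliates of 2-week-old seedlings of Glycine max cultivar Williams 82 (Williams82 PI518671), grown at 20 °C under 18 h of light and 6 h of darkness. The groups were leaves taken after 0, 1 and 24 h at 4 °C, with 3 libraries each and no fewer than 6 plants behind each library. Chilling began 4 h after the lights came on, and the light cycle went on during it. The 0 h leaves were unchilled, and unchilled leaves of the later harvest times were not analysed here. At 1 h, cold and the later hour of the light cycle therefore cannot be told apart. At 24 h, when the hour was again that of the 0 h leaves, cold and the greater age of the leaves cannot. Whether plants of one replicate number shared a growth or library batch was not given in the sources used here, so the spread between libraries may in part be technical.

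In plants, as known best from Arabidopsis, chilling is sensed within a short time and is followed by a first wave of transcripts, many of them for transcription factors such as the CBF/DREB1 proteins, whose levels later recede. Slower sets of genes that adjust membranes, sugars and protective proteins follow that wave. The circadian clock and the light cycle also move many leaf transcripts over the day. The deposited identifiers come without names, and 0 of the 49777 matched a table of 59048 RefSeq soybean genes. No function can therefore be given to either member, and the leaf identity of the samples could not be checked against marker genes.

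Glyma09g00400 was the member with the more even pattern. Before chilling it had 166, 125 and 74 normalized counts in replicates 1, 2 and 3. After 1 h of chilling it had 272, 225 and 105, and after 24 h it had 191, 162 and 70. The 1 h library was the highest of its replicate number each time, but the 1 h value of replicate 3 lay below the 0 h values of replicates 1 and 2, so the groups overlapped. The mean was 122 ± 46.1 before chilling, 201 ± 86.1 after 1 h and 141 ± 63.2 after 24 h (SD, n = 3 each). The order of the means was thus 1 h, 24 h and 0 h, and none of these neighbours was separated by more than the SD of the groups.

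Taken within replicate numbers, the differences of Glyma09g00400 were close to each other. The log2 difference between 1 h and 0 h was 0.71, 0.84 and 0.50 in replicates 1, 2 and 3, a mean of 0.68 ± 0.10 (SE, n = 3) or 1.61-fold. The difference between 24 h and 1 h was -0.51, -0.47 and -0.58, with a mean of -0.52 ± 0.03, so that the 24 h level was on average 0.698 times the 1 h level. The counting of reads alone gives these 3 differences an SE of 0.19, 0.20 and 0.27, and the rule admitted no value above -0.4. Their closeness and the ± 0.03 are therefore no measure of precision. Between 24 h and 0 h the difference was 0.20, 0.37 and -0.08, with a mean of 0.16 ± 0.13. Of the gain at 1 h in normalized counts, 23.6% and 37% was still present at 24 h in replicates 1 and 2, and in replicate 3 the 24 h level was below that at 0 h.

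Glyma02g15340 was more than 2-fold higher at 1 h than at 0 h in replicates 1 and 2, and close to the limit in replicate 3. Before chilling it had 68, 50 and 18 normalized counts in replicates 1, 2 and 3. After 1 h of chilling it had 145, 135 and 25, and after 24 h it had 109, 81 and 18. The replicate 3 libraries were the lowest at each time, and their 1 h value lay below both other 0 h values. The mean was 45.3 ± 25.3 before chilling, 102 ± 66.6 after 1 h and 69.3 ± 46.6 after 24 h (SD, n = 3 each), in the same order as for Glyma09g00400 and again overlapping.

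The log2 difference of Glyma02g15340 between 1 h and 0 h was 1.08, 1.42 and 0.45 in replicates 1, 2 and 3, with a mean of 0.98 ± 0.28 (SE, n = 3) or 1.98-fold. Between 24 h and 1 h it was -0.41, -0.73 and -0.45, with a mean of -0.53 ± 0.10, or 0.692 times the 1 h level. The gene had not returned to its starting level in every replicate number. The 24 h value was 0.67 and 0.69 above the 0 h value in replicates 1 and 2, both beyond the limit of 0.58, and equal to it in replicate 3. Its membership thus rested on replicate 3 for the condition on 24 h and 0 h.

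**Figure D1:**
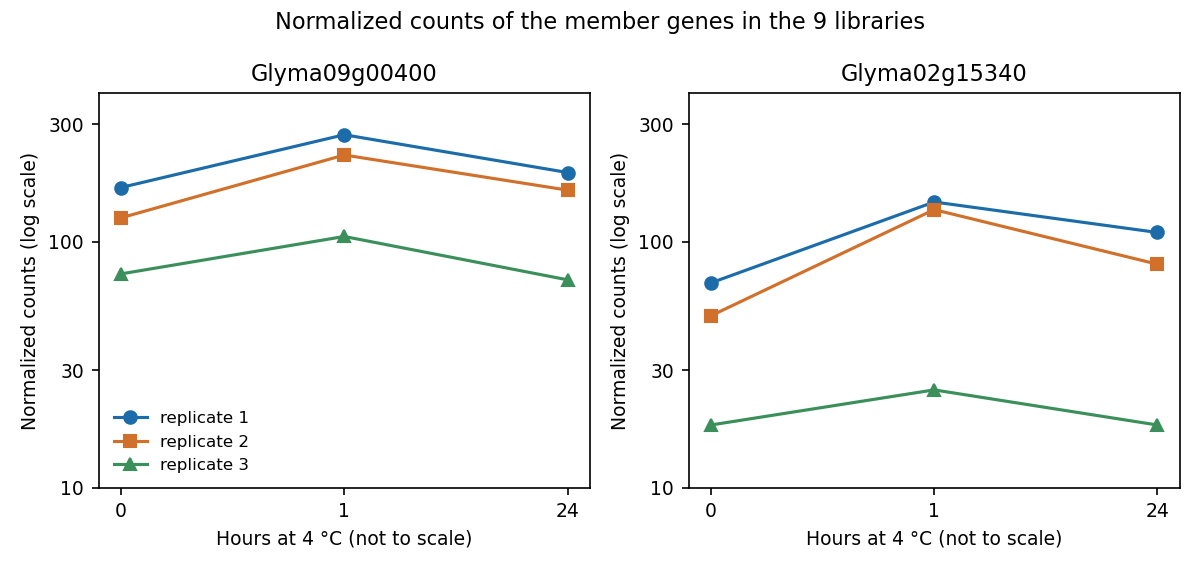
Normalized counts (log scale) of Glyma09g00400 and Glyma02g15340 after 0, 1 and 24 h at 4 °C, 1 line per replicate number and 1 point per library. Each line peaks at 1 h, which the choice of the genes required, and the replicate 3 lines lie lowest, at 74, 105 and 70 normalized counts for Glyma09g00400 and at 18, 25 and 18 for Glyma02g15340.

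The number of reads behind these values limits how well a single replicate number is known. The low values of each library fall on steps that give the worth of 1 read, and dividing by it gives an estimate of the reads counted. For Glyma09g00400 this was 65.7, 30.1 and 47.6 reads in replicates 1, 2 and 3 before chilling, then 100.2, 83.5 and 78.9 after 1 h, then 122, 138 and 42.3 after 24 h. For Glyma02g15340 it was 26.9, 12 and 11.6 reads before chilling, then 53.4, 50.1 and 18.8 after 1 h, then 69.6, 69.2 and 10.9 after 24 h. Although both genes had fewer normalized counts at 24 h than at 1 h, replicates 1 and 2 gave more reads at 24 h, because those libraries were the deeper ones.

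Counting error alone was therefore sizeable beside the limits of the rule. The difference of Glyma09g00400 between 1 h and 0 h was 3.10, 2.75 and 1.89 times its counting SE in replicates 1, 2 and 3, and that between 24 h and 1 h was 2.61, 2.36 and 2.10 times. For Glyma02g15340 these ratios were 3.17, 3.06 and 0.84 between 1 h and 0 h, and 1.56, 2.73 and 0.82 between 24 h and 1 h. The genes were chosen for the size of these differences, which tends to raise the ratios, so they are no test of a change. In replicate 3 both differences of Glyma02g15340, 0.45 ± 0.54 and -0.45 ± 0.55 (counting SE), were smaller than their counting error. A change in that replicate number was not detectable at this depth.

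**Figure D2:**
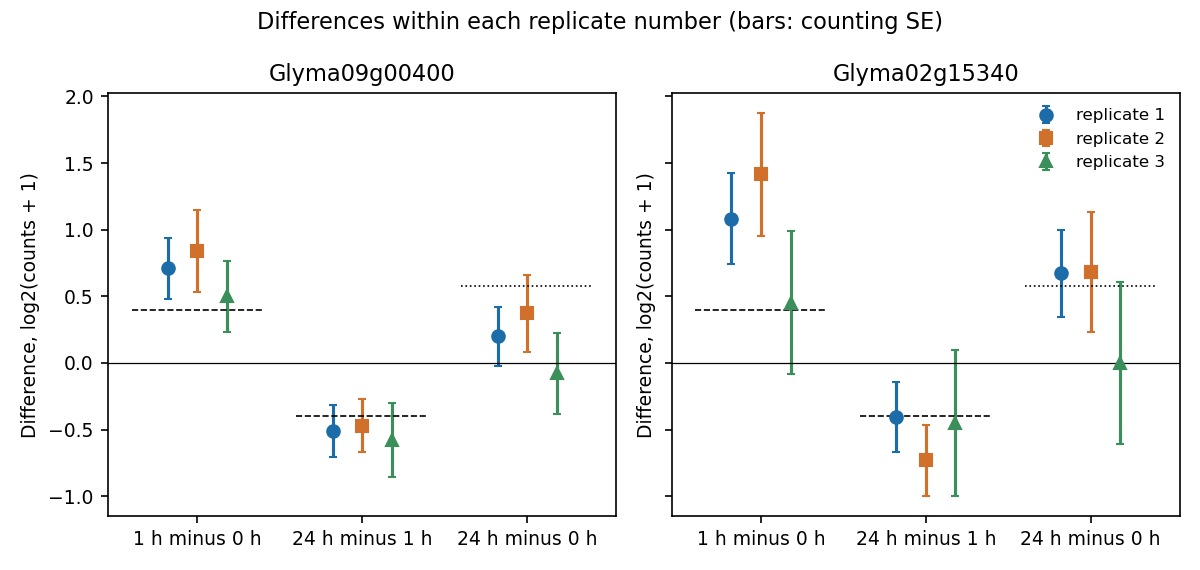
Differences in log2(normalized counts + 1) between times within each replicate number for the member genes, with bars of 1 counting SE, dashed lines at the limits of 0.4 and -0.4 and dotted lines at 0.58. All points between 1 h and 0 h lie above 0.4 and all points between 24 h and 1 h below -0.4, as the choice required, and the replicate 3 bars of Glyma02g15340 cross 0.

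Both genes stood just inside the rule. The smallest of the 3 differences between 1 h and 0 h was 0.50 for Glyma09g00400 and 0.45 for Glyma02g15340, and the nearest gene outside, with the other conditions met, had 0.35 (Glyma07g13790). The difference between 24 h and 1 h nearest to its limit was -0.47 and -0.41 in the members, and -0.39 in the nearest gene outside (Glyma18g10385). The 1 h mean was 201 and 102 normalized counts, against 96.7 in the nearest gene below the minimum of 100 (Glyma09g11690). These 3 outside genes were picked for their nearness after the values were seen.

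The conditions differed in how many genes they kept. Of the 28609 genes with a 1 h mean of at least 100 normalized counts, 469 (1.64%) were higher at 1 h than at 0 h by at least 0.4 in 3 of 3 replicate numbers, and 46 (0.161%) were lower at 24 h than at 1 h by as much. Both conditions held for 9 genes (0.0315%), and the condition on 24 h and 0 h left the 2 members (0.00699%). The mirrored rule, for genes lower at 1 h than at 0 h and higher again at 24 h, found 3 genes with the same minimum at 1 h and 6 with that minimum at 0 h.

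The 7 genes that met every condition but the one on 24 h and 0 h had larger differences than the members at both steps. Their mean difference between 1 h and 0 h ran from 1.29 to 7.66 on the log2 scale, with a median of 3.09, against 0.68 and 0.98 in Glyma09g00400 and Glyma02g15340. Their mean difference between 24 h and 1 h ran from -2.45 to -0.55, with a median of -1.05, against -0.52 and -0.53 in the members. At 24 h they kept 20.4% to 46.4% of their mean gain in normalized counts, and the members kept 24.5% and 42.6%. The condition that separates the sets passes a small gain more easily than a large one when a like share of it is left at 24 h, so nothing is read from the contrast. The gene closest to membership, Glyma01g36480, averaged 135 ± 4.93 normalized counts before chilling, 336 ± 49.9 after 1 h and 228 ± 17.6 after 24 h (SD, n = 3 each), and its lowest difference between 24 h and 0 h, 0.585, lay just past the limit of 0.58.

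**Figure D3:**
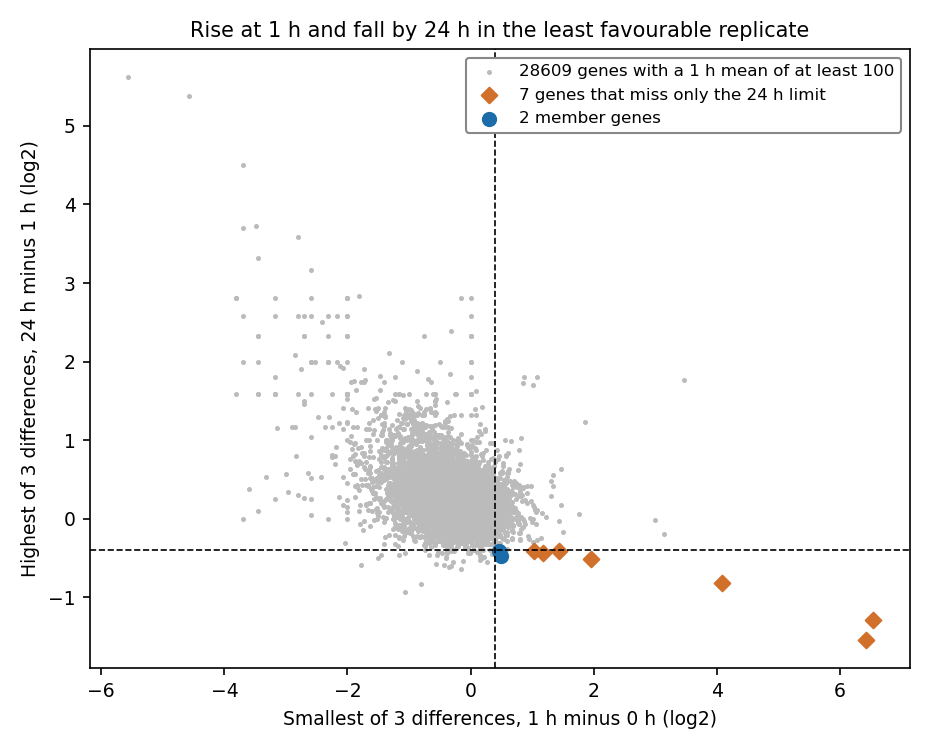
Smallest of the 3 log2 differences between 1 h and 0 h (horizontal axis) and highest of the 3 between 24 h and 1 h (vertical axis) for 28609 genes, with dashed lines at 0.4 and -0.4. The members lie at the inner corner of the lower right field, at 0.45 and 0.50 on the horizontal axis, while the 7 genes that miss only the condition on 24 h and 0 h extend to the right.

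A further 114 genes had the members' pattern at a 1 h mean under 100 normalized counts. The median of their 1 h means was 12.7, and 74 of them were listed at 0 in at least 1 library of 0 h. The library with the fewest reads held an estimated 11.1 reads at most in any of these genes, which is close to the 10.9 reads of Glyma02g15340 in its own poorest library and far below the 30.1 of Glyma09g00400.

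In the fit across all genes (limma, Benjamini-Hochberg adjusted p under 0.05 over 38985 genes), 0 of the 2 members were called in any of the 3 comparisons, where 0% of all genes were called. At an unadjusted p under 0.05, 539 genes passed between 1 h and 0 h, 68 between 24 h and 1 h and 549 between 24 h and 0 h. With the replicate number as a block, Glyma09g00400 was called higher at 1 h than at 0 h and Glyma02g15340 was not, where 2.4% of all genes were called higher. The limma adjusted p of Glyma09g00400, 0.049, lay at the edge of the threshold. Between 24 h and 1 h the block left 0 of the 2 members and 0% of all genes called lower, with 2211 genes in either direction at an unadjusted p under 0.05, and between 24 h and 0 h it called 0 of the 2 members, where 3.01% of all genes were called higher. Glyma09g00400 lost its call with plain eBayes moderation, without the filter on low values, and without any 1 of the 3 replicate numbers, and Glyma02g15340 was called without replicate number 3. The rule used these comparisons, so nothing is read from the counts.

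Both members varied more between replicate numbers than within them, and the median over all genes showed the same. The limits of the rule apply within each number, so the members' SE with the block is not independent of the choice. For Glyma09g00400 the moderated SE of each difference was 0.54 on the log2 scale without the block and 0.17 with it, and for Glyma02g15340 it was 0.95 and 0.27. The median over all genes tested was 0.49 without the block and 0.15 with it. Without regard to replicate number, neither gene had its 1 h values all above its 0 h values or all above its 24 h values. Of the 28609 genes, 2.64% met the first of these, 0.731% the second and 0.213% both.

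The rule set no condition on the level of a gene in one replicate number relative to another. Its 1 h minimum was a mean over the replicate numbers, however, and Glyma02g15340 reached it with 145, 135 and 25 normalized counts. The ratios below are therefore not wholly independent of the choice. Both members were lower in replicate 3 than in replicates 1 and 2. For Glyma09g00400 replicate 3 was at 0.517, 0.427 and 0.401 times the geometric mean of replicates 1 and 2 after 0, 1 and 24 h. For Glyma02g15340 it was at 0.32, 0.185 and 0.2 times. Among the 28537 genes that averaged 100 or more over the 9 libraries, 14.1% to 19.0% had a lower value of this ratio than Glyma09g00400. Glyma02g15340 averaged 72.1 and is not among them. Of the 3480 genes that averaged 50 to under 100, a set chosen after the data were seen, 7.53% to 15.0% had a lower ratio than Glyma02g15340. Between replicates 1 and 2 the members differed less, by 0.24 to 0.41 on the log2 scale for Glyma09g00400 and by 0.10 to 0.44 for Glyma02g15340, with replicate 1 the higher at each time.

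To read the pattern in libraries outside the choice, the same conditions were applied to 2 replicate numbers, and all genes so chosen were then read in the third. This says something of the genes chosen by a pair as a set, and nothing new of the members, which meet the limits of 0.4 in every replicate number by the rule. Glyma09g00400 was chosen by each of the 3 pairs, with a 1 h mean of 165, 188.5 and 248.5 normalized counts in the pairs without replicates 1, 2 and 3. Glyma02g15340 was chosen by none. Without replicate 1 or 2 its 1 h mean was 80 or 85, below the minimum, and without replicate 3 its 24 h values stayed at least 0.67 above those at 0 h.

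The pairs chose 19, 24 and 132 genes when replicates 1, 2 and 3 were left out. In the replicate left out, these genes were higher at 1 h than at 0 h by a median of 0.35, 0.02 and 0.27 on the log2 scale, against -0.04, -0.02 and -0.02 over all genes with the same minimum. The difference reached 0.4 in 47.4%, 29.2% and 36.4% of the chosen genes, against 11.7%, 11.3% and 8.32% of all genes. These are 9, 7 and 48 genes, and each count includes Glyma09g00400, which was bound to reach 0.4 because it is a member. A gain of at least 0.4 was thus more frequent among the chosen genes. The genes set beside them were not matched in spread, and losses of 0.4 were not counted. A more variable set would pass 0.4 more often in either direction, so nothing is concluded from this share. With replicate 2 left out, however, only 54.2% of the chosen genes were higher at 1 h at all, against 46.6% of all genes.

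Between 24 h and 1 h the chosen genes stood closer to all genes, in percentage points. The median difference between 24 h and 1 h in the replicate left out was -0.13, 0.08 and 0.06 for the chosen genes, against 0.01, 0.01 and 0.00 over all genes, so it was positive in 2 of 3 readings. The 24 h value was lower by at least 0.4 in 26.3%, 12.5% and 4.55% of the chosen genes, against 7.07%, 9.71% and 3.73% of all genes. These are 5, 3 and 6 chosen genes, and each count again includes Glyma09g00400. Both conditions held in the replicate left out for 2 of 19, 2 of 24 and 3 of 132 genes. These 7 readings make up 4% of the 175 choices, against 1.62% over all genes with each reading weighted by its number of choices. Of the 7, 3 are Glyma09g00400, whose readings were bound to meet both conditions because it is a member. The other 172 choices gave 4, or 2.33%, which is closer to the 1.62% over all genes. The mirrored conditions chose 23, 40 and 25 genes, of which 4, 4 and 1 met both mirrored conditions in the replicate left out. Both differences of a replicate number share its 1 h library, so an unusual 1 h value moves them in opposite directions at once.

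**Figure D4:**
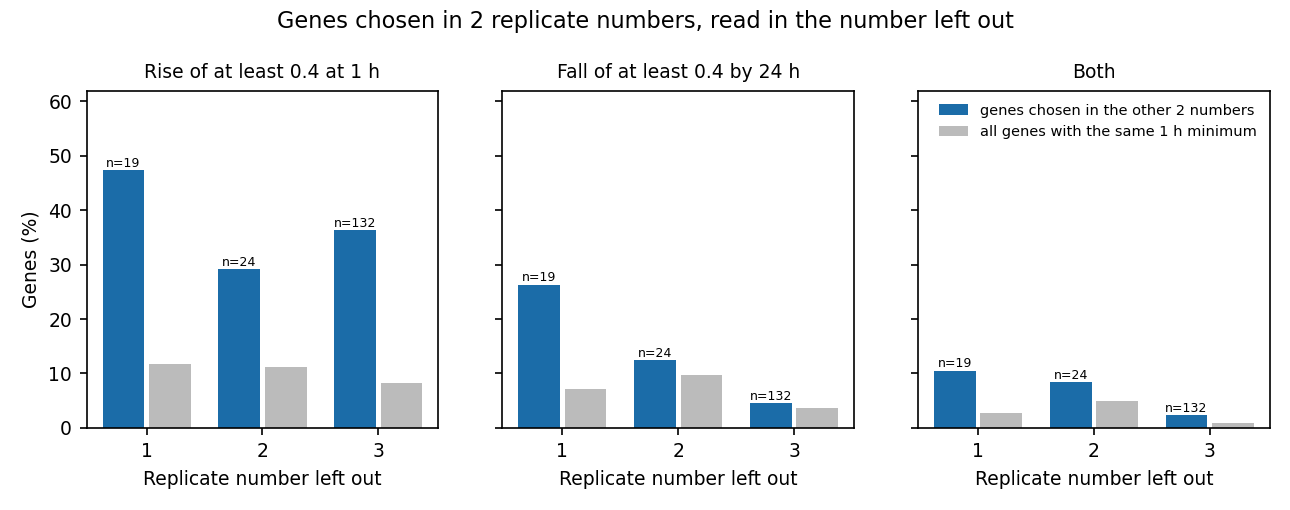
Share of genes (%) that met each condition in the replicate number left out, for genes chosen in the other 2 numbers (blue) and for all genes with the same 1 h minimum (grey). The blue bars stand well above the grey ones for the difference between 1 h and 0 h (29.2% to 47.4%), and differ less from them between 24 h and 1 h without replicates 2 and 3. Each blue bar includes Glyma09g00400, which met the conditions by the rule.

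By the number in their identifiers the members lie on different chromosomes, 9 and 2. Glyma09g00400 is identifier 26 of 2399 for its chromosome in the table and Glyma02g15340 is 1182 of 2738. Of the 8 genes listed within 2 positions of a member, 2 averaged under 10 normalized counts and could hardly show the pattern. Of the 8, 0 were higher at 1 h than at 0 h by at least 0.4 in 3 of 3 replicate numbers, and 0 were lower at 24 h than at 1 h by as much in 3 of 3. The gene that follows Glyma02g15340 in the numbering, Glyma02g15351, was higher at 1 h by 0.58, 0.26 and 0.23 in replicates 1, 2 and 3 and differed by -0.01 on average between 24 h and 1 h. The next one, Glyma02g15360, had the largest mean difference between 1 h and 0 h of the 8, 0.96, from an uneven -0.20, 0.62 and 2.46. Between 24 h and 1 h it also differed by -0.01 on average. Reads shared with near-identical copies elsewhere could not be examined, so the values of both members are uncertain to that extent.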

How the data were processed

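The authors deposited a score per gene and library, normalized read counts rounded to whole numbers, 70.98 to 81.88 M per library. Per the submitters' processing notes, cutadapt 1.2.1 and DESeq 1.12 were among the tools used; for aligner, build and annotation, the sources used here give no name. From the step between low scores, depth was estimated at 17.9 to 67.8 M reads. Since some scores fall between steps, whole reads were not recovered and no count test was run. Counting SEs cover counting error only.

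Scores were analysed as log2(score + 1), which understates changes of low genes. All genes with a mean of at least 10 entered limma 3.58.1 (R 4.3.3; trend and robust eBayes, two-sided, all 9 libraries), adjusted by the Benjamini-Hochberg method at 0.05, and again with a block for the replicate number. Deviations from group means correlated at 0.85 to 0.98 across 28537 genes for libraries of the same number. Libraries of different numbers were not compared in this way, so the correlations do not settle how the libraries pair. The limma fit with the block was tried on simulated data. Tables and figures used Python 3.11.15, pandas 2.3.3 and matplotlib 3.10.9.

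The members, the rule and the lists were chosen with earlier results of these data known. All members were to be named, as there were at most 25; genes near a limit were named after their values were seen. Lists by gene name could not be used, because no identifier had a name.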

Additional observations from a re-analysis of the deposited data

How the results depend on the processing

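The number of member genes depended on the settings. It stayed at 2 with pseudocounts of 0.5 and 5, although with 5 only Glyma09g00400 remained and another gene entered. It was 12 with a limit of 0.3 and 0 with 0.5, 9 without the condition on 24 h and 0 h, and 15 and 0 with 1 h minimums of 50 and 300. Equal library totals gave 10 genes, and they shift the median difference between 24 h and 1 h of all genes by -0.10. Quantile normalization gave 0 genes: a difference between 24 h and 1 h became -0.39 in replicate 2 of Glyma09g00400 and -0.35 in replicate 1 of Glyma02g15340. Choosing on 2 replicate numbers gave 19 to 132 genes, by fewer conditions, and 1 h values above every 0 h and 24 h value, without pairing, gave 61 genes with neither member. The members' mean differences kept their sign under each pseudocount and scaling. For 1 h against 0 h and 24 h against 1 h, the choice of at least 0.4 in each replicate number left little room for another outcome.

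Both conditions held in the replicate left out for 8.82% of choices with a limit of 0.3, 1.25% with 0.5 and 8.24% with equal library totals, against 3.18%, 0.881% and 2.60% of all genes, with each reading weighted by its number of choices, a weighting added after the data were seen. A choice that meets both conditions meets the limits in 3 of 3 replicate numbers, as members at that setting do. Any such members among the choices were bound to pass and were not taken out, so nothing is read from these shares. The cause of these shifts was not tested.

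Over all genes, the replicate block gave 1742 calls between 1 h and 0 h, against 0 without it, then 1679 and 1884 with pseudocounts of 0.5 and 5, 1449 without a filter, 1882 with equal totals, 0 with plain eBayes, and 7, 242 and 1288 without replicate numbers 1, 2 and 3. Glyma09g00400 lost its call without the filter, with plain eBayes and without any 1 of the numbers, while Glyma02g15340 was called without number 3. The members were chosen on this comparison, so nothing is read from their calls. Between 24 h and 0 h the same fits gave 1993, 1960, 2119, 1655, 2068, 1, 42, 93 and 1802. Between 24 h and 1 h 3 genes passed without number 3, all of them higher at 24 h, and 0 in the other fits. Leaving out single libraries without the block gave 0 to 2 genes between 1 h and 0 h and 0 in the other comparisons. The count test was not run, for lack of whole reads.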
